A study of Mus musculus with 8 samples.

Results

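A set of 5 genes that make, break down or bind retinoic acid (RA) were followed: Cyp26b1, Dhrs3, Rdh10, Crabp1 and Crabp2. They were chosen by name for these roles, with earlier results of these data known. They are the rows of the deposited table that carry these symbols, and all 5 were found among its 22200 genes. The cells were immortalized mouse embryonic fibroblasts (MEFs) on the C57BL/6 background, labelled TAF4-/-, that is without the TAF4 subunit of the general transcription factor TFIID. The 8 libraries form 3 groups: 3 of untreated cells at 12 h (treatment given as none), 3 of cells given retinoic acid for 12 h, and 2 of cells given retinoic acid for 72 h. The controls carry the same genotype as the treated cells. There is no untreated library at 72 h, so RA and time in culture cannot be told apart in any comparison with the 72 h group. Per the study's methods the TAF4-null cells used for sequencing are 1 line, made by Cre recombination of a floxed Taf4 allele in MEFs of Taf4 lox/- embryos; another TAF4-null line of the study is not analysed here.

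Retinol is oxidised to retinaldehyde by retinol dehydrogenases such as RDH10, and retinaldehyde is oxidised to RA by the ALDH1A enzymes. DHRS3 works in the opposite direction to RDH10 and reduces retinaldehyde back to retinol, while the CYP26 enzymes, cytochromes P450 of the endoplasmic reticulum, hydroxylate RA and so clear it from the cell. CRABP1 and CRABP2 are small cytoplasmic proteins that bind RA, and CRABP2 can carry it to the RA receptors (RARs) in the nucleus. RARs bind DNA with RXR partners at pairs of a short repeated half-site, and several genes of RA breakdown are known RAR targets in embryonic tissues.

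The start regions of Cyp26b1 and Dhrs3 are shown because these were the 2 genes of the 5 with the largest changes. Each runs from 250 bases before to 50 bases after the start site, 5′ to 3′ on the gene's strand, from RefSeq on build GRCm38.p6 (the gene coordinates given further on are on mm9). The Cyp26b1 window is chr6:84593761-84594060 on the minus strand. The Dhrs3 window, the first of 3 listed for the gene, is chr4:144892577-144892876 on the plus strand. Capitals mark a TATAAA match.
Cyp26b1: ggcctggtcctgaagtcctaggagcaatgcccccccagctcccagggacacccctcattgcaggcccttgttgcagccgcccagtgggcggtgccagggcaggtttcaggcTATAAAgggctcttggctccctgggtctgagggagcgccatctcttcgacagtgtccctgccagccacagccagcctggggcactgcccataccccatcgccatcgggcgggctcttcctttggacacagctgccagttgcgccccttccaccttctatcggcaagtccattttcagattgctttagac
Dhrs3: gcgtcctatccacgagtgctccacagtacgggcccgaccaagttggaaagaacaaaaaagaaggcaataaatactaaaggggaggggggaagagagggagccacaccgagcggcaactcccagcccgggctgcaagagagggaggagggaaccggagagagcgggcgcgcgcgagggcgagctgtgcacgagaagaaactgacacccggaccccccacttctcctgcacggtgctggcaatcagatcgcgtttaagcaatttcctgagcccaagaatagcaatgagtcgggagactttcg

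Of the 5 symbols, 3 had an entry in the RefSeq promoter table (Cyp26b1, Dhrs3 and Crabp1), and Rdh10 and Crabp2 did not. The share of G and C was 62.3% in the Cyp26b1 window, 65% in that of Crabp1 and 58.7%, 45% and 45.3% in the 3 of Dhrs3, against a median of 52.67% over all 32851 windows of the table. TATAAA, searched on the gene's strand only, is held by 8.32% of all windows and began at position -139 from the listed start of Cyp26b1. The half-site AGGTCA was searched on both strands, along with its variants AGTTCA (another inner base), GGGTCA (with another first base) and GGTTCA (with both changes). These letters were in 0 of the 3 Dhrs3 windows, 0 of 1 for Cyp26b1 and 0 of 1 for Crabp1, while 43.7% of all windows hold at least 1. This says only that these letters are not in these 300 bases.

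All values are the authors' normalised reads per gene, which run from 1, the lowest value in the table, to 165593. They were quantile normalised, so every library has the same total and the depth behind a value is unknown. Spearman's rho between libraries of a group was 0.981 to 0.992 (untreated), 0.990 to 0.994 (RA 12 h) and 0.990 (RA 72 h). Of the variance within groups, 50.1% lay along 1 axis that crosses the groups, with untreated 1 and 2, RA 12 h 3 and RA 72 h 2 on one side and the other 4 libraries on the other side. Fibroblast markers were high in every library: 9 of 10 had a mean of at least 10, and their sum was 256139 to 274614 (untreated), 256773 to 267461 (RA 12 h) and 234049 to 236696 (RA 72 h), with Thy1 near the lowest value of the table. The sums of the epithelial, endothelial, blood and pluripotent lists were at most 92 in any library. The 4 neural markers summed to 648 to 804, 765 to 945 and 1006 to 1093 in the 3 groups, and their part in the results was not tested. Most of the sum was Map2 (group means 296, 346 and 466) and Nes (405, 497 and 559). Tubb3 (24.4, 17.0 and 22.9) and Gfap (2.92, 2.63 and 2.13) did not rise. Taf4a, the gene labelled as deleted, had 984 to 1449 normalised reads in the 8 libraries. No library of TAF4-expressing cells is compared here and the table does not show which exons the reads came from, so this neither checks nor contradicts the label, but the sample titles carry cl1, close to the study's name for its TAF4-expressing line. Taf4b, the paralogue of TAF4 in TFIID, was not called in any comparison.

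**Figure D1:**
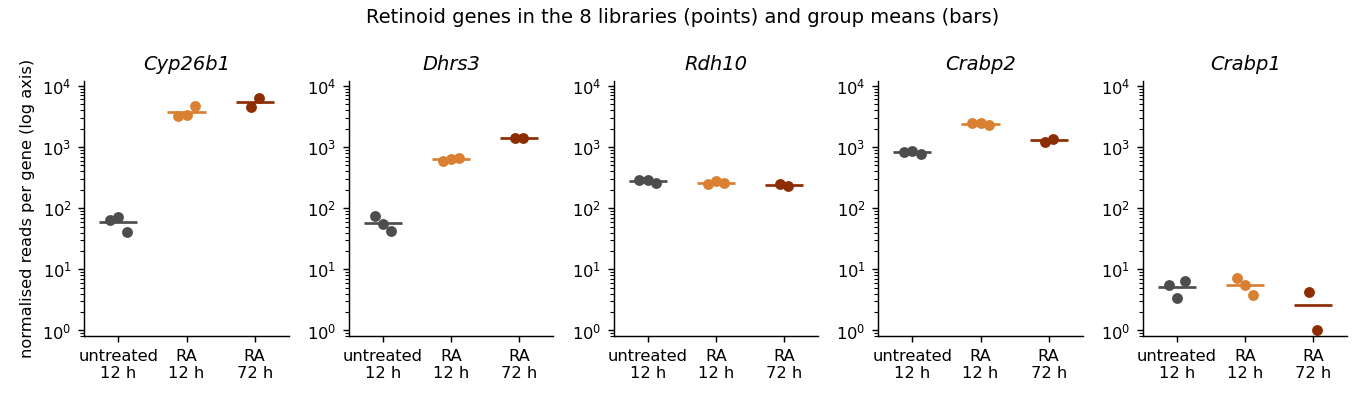
Normalised reads per gene (log axis) of the 5 genes in each library, with a point per library, a bar at the group mean, 3 untreated, 3 RA 12 h and 2 RA 72 h libraries. Cyp26b1 and Dhrs3 lie far above the untreated libraries at both times, Crabp2 is highest at 12 h, Rdh10 stays between 229 and 292, and Crabp1 is at or below 7.25 in every library.

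Calls of higher or lower needed 2 things: a limma p under 0.05 after Benjamini-Hochberg adjustment over the 12673 genes whose mean reached 10, and a 2-fold change. By this rule 4 of the 5 genes could be tested, since Crabp1 was under the level minimum. At 12 h, 3 of the 4 were called higher and 0 lower, beside 1.11% of all tested genes called higher and 0.308% called lower. At 72 h against untreated, 2 of the 4 were called higher and 0 lower, beside 2.15% and 1.52% of all genes. Between 72 h and 12 h, 1 of the 4 was called higher and 0 lower, beside 0.765% and 0.734%. Because the genes were chosen with earlier results of these data known, these counts are a description only. By unadjusted p below 0.05 (limma), 0 of the 4 fell at 12 h, beside 8.33% of all tested genes. At 72 h against untreated it was 0, beside 12.4%, and between 12 h and 72 h it was 1 (Crabp2), beside 10%. The labels do not say whether the replicates were separate cultures, so the p-values measure the spread between these libraries only. The median log2 change of all tested genes was -0.0156, -0.0203 and -0.00194 in the 3 comparisons. Both comparisons with untreated cells use the same 3 control libraries.

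RA breakdown: Cyp26b1 (ENSMUSG00000063415, chromosome 6, 84521938 to 84543740, minus strand, mm9) encodes an enzyme that inactivates RA. Its normalised reads were 63.6, 73 and 40.4 in the untreated libraries, 3251.5, 3367 and 4620.1 after 12 h of RA, and 4476.5 and 6306 after 72 h. Every treated library lay far above every untreated one, and the 12 h and 72 h libraries overlapped. The group means were 59.0 ± 16.8 (SD, n = 3), 3746 ± 759 (SD, n = 3) and 5391 ± 1293 (SD, n = 2). Relative to the mean, the spread was similar in the 3 groups, with coefficients of variation of 28.5%, 20.3% and 24.0%. Cyp26b1 rose 63.5-fold at 12 h, a log2 change of 5.99 (SE 0.20, 95% interval 5.55 to 6.43, limma adjusted p 3.76e-09). At 72 h it rose 91.2-fold, a log2 change of 6.51 (SE 0.23, 95% interval 6.02 to 7.00, limma adjusted p 1.79e-09). This was the largest rise of the tested genes in both comparisons, though at 72 h Ddx25 was almost equal at 6.495 (SE 0.257). From 12 h to 72 h the difference of Cyp26b1 was 0.52 on the log2 scale (95% interval 0.03 to 1.02, limma adjusted p 0.233), so it was not called, and the interval reaches from near 0 to about 2-fold. Within the 2 sides of the shared axis the 12 h change was 6.06 and 6.32, and the later difference 0.45 and 0.44. With the side as a term the later difference was 0.43 (SE 0.10, limma adjusted p 0.00538), past the p threshold but under 2-fold; the sides were taken from the deviations of these same libraries. It was 0.28 without the second 72 h library and 0.77 without the first.

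Retinaldehyde reduction: Dhrs3 (ENSMUSG00000066026, chromosome 4, 144482730 to 144518112, plus strand, mm9) encodes the enzyme that returns retinaldehyde to retinol. Its normalised reads were 75, 56 and 42.8 in the untreated libraries, 599, 647 and 653 after 12 h, and 1382 and 1409 after 72 h. The 3 groups did not overlap at all. The means were 57.9 ± 16.2 (SD, n = 3), 633 ± 29.5 (SD, n = 3) and 1395 ± 18.7 (SD, n = 2). The rise at 12 h was 11.03-fold, a log2 change of 3.46 (SE 0.16, limma adjusted p 1.24e-07), and at 72 h 24.3-fold, 4.60 (SE 0.18, limma adjusted p 5.50e-09). Dhrs3 was the only 1 of the 4 genes called between the 2 times: it was 2.20-fold higher at 72 h than at 12 h, a log2 change of 1.14 (SE 0.18, 95% interval 0.74 to 1.54, limma adjusted p 0.00249), and within the 2 sides of the shared axis the change was 1.11 and 1.15. That interval extends below 2-fold, so the size passes the 2-fold mark only as an estimate.

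Retinol oxidation: Rdh10 (ENSMUSG00000025921, chromosome 1, 16095855 to 16123815, plus strand, mm9) encodes the dehydrogenase that begins RA synthesis. It gave 286, 292 and 257 normalised reads in the untreated libraries, 249.9, 278 and 256 after 12 h, and 246.5 and 229 after 72 h. The untreated and 12 h libraries overlapped, and both 72 h libraries lay below all of the others. The means were 278 ± 18.9 (SD, n = 3), 261 ± 15.0 (SD, n = 3) and 238 ± 12.1 (SD, n = 2). The log2 changes were -0.09 at 12 h (95% interval -0.33 to 0.16, limma adjusted p 0.738), -0.22 at 72 h (95% interval -0.50 to 0.05, limma adjusted p 0.317) and -0.13 between them (95% interval -0.41 to 0.14, limma adjusted p 0.645). None was called, and none of the 3 intervals reaches 2-fold in either direction.

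The order of the transcripts of the 2 enzymes that work against each other was turned around. With normalised reads divided by the length of the annotated exons, the ratio of Dhrs3 to Rdh10 was 0.373, 0.273 and 0.237 in the untreated libraries, 3.41, 3.31 and 3.63 after 12 h, and 7.97 and 8.73 after 72 h. This division does not hold for short tags from 1 site per transcript, which the labels describe. Undivided, the ratio was 0.262, 0.192 and 0.167 untreated, 2.40, 2.33 and 2.55 after 12 h, and 5.61 and 6.14 after 72 h. On either scale Rdh10 was the higher of the pair in every untreated library, and Dhrs3 in every treated one.

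**Figure D2:**
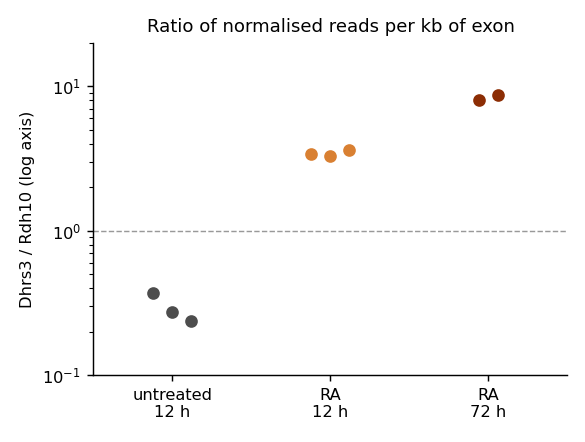
Ratio of Dhrs3 to Rdh10 in normalised reads per kb of exon (log axis, dashed line at 1), with a point per library in the 3 groups. The 3 untreated libraries lie below 1 at 0.237 to 0.373, the RA 12 h libraries at 3.31 to 3.63 and the RA 72 h libraries at 7.97 and 8.73.

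RA binding: Crabp2 (ENSMUSG00000004885, chromosome 3, 87752588 to 87757298, plus strand, mm9) was already abundant without RA. It gave 834, 869 and 776 normalised reads in the untreated libraries, 2445, 2469 and 2268 after 12 h, and 1229 and 1368 after 72 h. No 2 groups overlapped, and the 72 h libraries lay between the untreated and the 12 h libraries. The means were 826 ± 47.1 (SD, n = 3), 2394 ± 110 (SD, n = 3) and 1299 ± 98.4 (SD, n = 2). At 12 h Crabp2 rose 2.90-fold, a log2 change of 1.53 (SE 0.09, 95% interval 1.33 to 1.74, limma adjusted p 5.90e-07). At 72 h it was 1.57-fold above untreated, 0.65 on the log2 scale (95% interval 0.42 to 0.88, limma adjusted p 0.00125), and from 12 h to 72 h its log2 change was -0.88 (95% interval -1.11 to -0.65, limma adjusted p 0.000295). Both passed the p threshold but not the 2-fold minimum. Within the 2 sides of the shared axis the change from 12 h to 72 h was -0.73 and -0.999.

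The other binding protein, Crabp1 (ENSMUSG00000032291, chromosome 9, 54612555 to 54620917, plus strand, mm9), was near the lowest value of the table. Its normalised reads were 5.63, 3.38 and 6.38 untreated, 7.25, 5.63 and 3.88 after 12 h, and 4.25 and 1 after 72 h, the last being the lowest value that the table holds. The groups overlapped at every step. The log2 changes of 0.11, -0.88 and -0.99 (in the order 12 h and 72 h against untreated cells, then 72 h against 12 h) had two-sided exact permutation p-values of 0.7, 0.3 and 0.3, where the smallest p that these group sizes allow is 0.1. The change with 72 h rests on the library at 1: without it the log2 changes were -0.19 against untreated and -0.29 against 12 h.

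**Figure D3:**
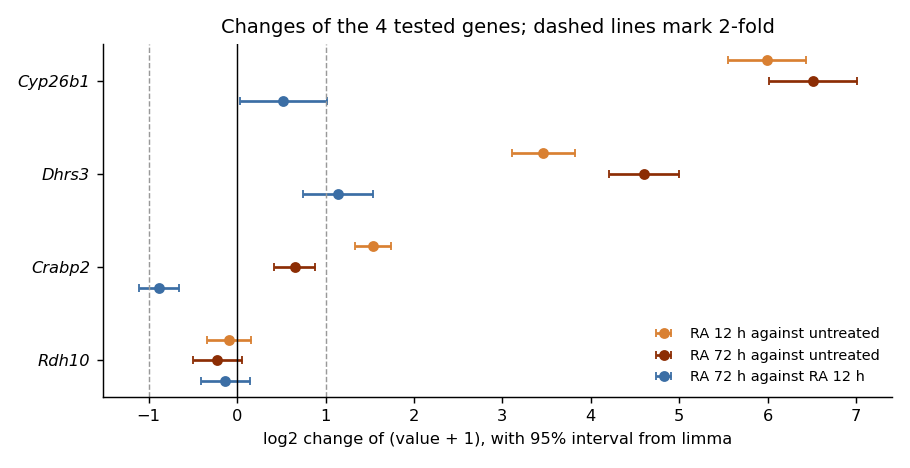
Log2 change of (value + 1) in 3 comparisons for the 4 genes tested, with 95% intervals from limma over 8 libraries and dashed lines at 2-fold. The 72 h against 12 h points differ in sign, at 1.14 for Dhrs3, 0.52 for Cyp26b1, -0.13 for Rdh10 and -0.88 for Crabp2.

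The 3 genes called at 12 h can be set side by side for the later step, although differences between genes were not tested. Dhrs3 rose again by 72 h, Crabp2 was lower at 72 h than at 12 h by a change that passed the p threshold but not the 2-fold minimum, and the later change of Cyp26b1 was under 2-fold and passed the p threshold only with the side of the shared axis as a term. For levels between genes, the same division by exon length was used. It fits libraries of random fragments; the labels describe short tags from 1 site per transcript, for which a length scale does not hold. Per kb of exon, Crabp2 was the highest of the 5 in untreated cells at 625 ± 35.6 (SD, n = 3) normalised reads per kb, above 95.3% of genes with an annotated length. Rdh10 followed at 66.9 ± 4.55, Dhrs3 at 19.8 ± 5.54, Cyp26b1 at 12.8 ± 3.65 and Crabp1 at 6.39 ± 1.95 reads per kb (SD, n = 3), and the libraries of Dhrs3 and Cyp26b1 overlapped. At 12 h the order was Crabp2 at 1811 ± 83.0, Cyp26b1 at 814 ± 165, Dhrs3 at 216 ± 10.1, Rdh10 at 62.8 ± 3.61 and Crabp1 at 6.96 ± 2.10 reads per kb (SD, n = 3). At 72 h Cyp26b1 came to 1171 ± 281 and Crabp2 to 982 ± 74.4 reads per kb (SD, n = 2), with overlapping libraries, then Dhrs3 at 477 ± 6.40, Rdh10 at 57.2 ± 2.91 and Crabp1 at 3.27 ± 2.87. By this scale Cyp26b1 moved from above 55.0% of genes in untreated cells to above 97.5% at 72 h. On the undivided scale the order of Cyp26b1 and Crabp2 with RA is another: Cyp26b1 had more normalised reads than Crabp2 in all 3 libraries at 12 h and in both at 72 h, with no overlap between the genes.

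The wider pathway was read from a list of 58 other retinoid genes, all in the table, of which 27 passed the level minimum. This list too was chosen with earlier results of these data known. At 12 h, 1 of the 27 was called higher (Rarb) and 0 lower, beside 1.11% and 0.308% of all tested genes. At 72 h 2 were called higher (Rarb and Por) and 0 lower, beside 2.15% and 1.52%. Between 72 h and 12 h 0 were called (limma), beside 0.765% higher and 0.734% lower. By unadjusted p below 0.05, 4 were higher and 1 lower at 12 h, 8 and 1 at 72 h, and 6 and 0 between the times. Of all tested genes the same cut takes 7.96% higher and 8.33% lower at 12 h, 11.5% and 12.4% at 72 h, and 8.86% and 10% between the times. The median log2 change of the 27 was 0.11, 0.15 and 0.09 in the 3 comparisons.

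Rarb (ENSMUSG00000017491), an RA receptor and a known RAR target, had 46.6, 31.1 and 58.4 normalised reads in untreated libraries, 123.5, 175 and 159 at 12 h, and 242 and 205 at 72 h. All treated libraries lay above all untreated ones, and the log2 changes were 1.76 (SE 0.22, limma adjusted p 0.00021) and 2.31 (SE 0.24, limma adjusted p 3.4e-05). The other RARs were expressed and not called: Rara had group means of 644, 629 and 783 and Rarg of 1214, 1425 and 1260 normalised reads.

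Por (ENSMUSG00000005514), the reductase that passes electrons to the microsomal cytochromes P450, the CYP26 enzymes among them, had 429.6, 427.5 and 401 normalised reads in untreated libraries, 768, 842 and 879 at 12 h, and 789 and 1099.9 at 72 h. Its groups with RA lay above the untreated group at both times. The log2 change was 0.98 at 12 h (limma adjusted p 0.000264), just under 2-fold, and 1.15 at 72 h (SE 0.14, limma adjusted p 0.000108); without the second 72 h library the latter was 0.91 and no longer called.

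The other 2 genes of the CYP26 family were near the lowest value of the table in all libraries, with a mean over the 8 libraries of 3.09 for Cyp26a1 and 4.95 for Cyp26c1, and were not tested. Of the enzymes that make RA from retinaldehyde, Aldh1a1 had a mean of 8.30 and was not tested; its reads are uncertain because the near-identical Aldh1a7 can share them. Aldh1a2 had group means of 16.1, 14.0 and 14.9 normalised reads, with log2 changes of -0.11 and -0.04. Aldh1a3 had means of 21.6, 15.2 and 12.0, with log2 changes of -0.50 at 12 h and -0.80 at 72 h (limma adjusted p 0.133), and was not called. The genes of uptake and storage Stra6 and Lrat had means of 3.70 and 2.56 over the 8 libraries and were not tested, nor was the RA-binding Fabp5, at 3.61, whose reads can be shared with near-identical copies.

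Among the oxidoreductases beside Dhrs3 and Rdh10, 0 of 12 tested genes were called in any of the 3 comparisons (limma). By unadjusted p below 0.05 there were 1, 3 and 4 higher and 0 lower. Of all tested genes that cut takes 7.96%, 11.5% and 8.86% higher and 8.33%, 12.4% and 10% lower. Rdh11 and Akr1b3 are named because their changes passed the p threshold without reaching 2-fold, a choice made after their values were seen. Rdh11, a retinaldehyde reductase, had means of 77.0 ± 13.8, 66.9 ± 8.14 (SD, n = 3 each) and 132 ± 7.34 (SD, n = 2), 0.98 on the log2 scale from 12 h to 72 h (limma adjusted p 0.00937). Akr1b3 encodes an aldose reductase and was 0.86 above untreated at 72 h on the log2 scale (limma adjusted p 0.00151).

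**Figure D4:**
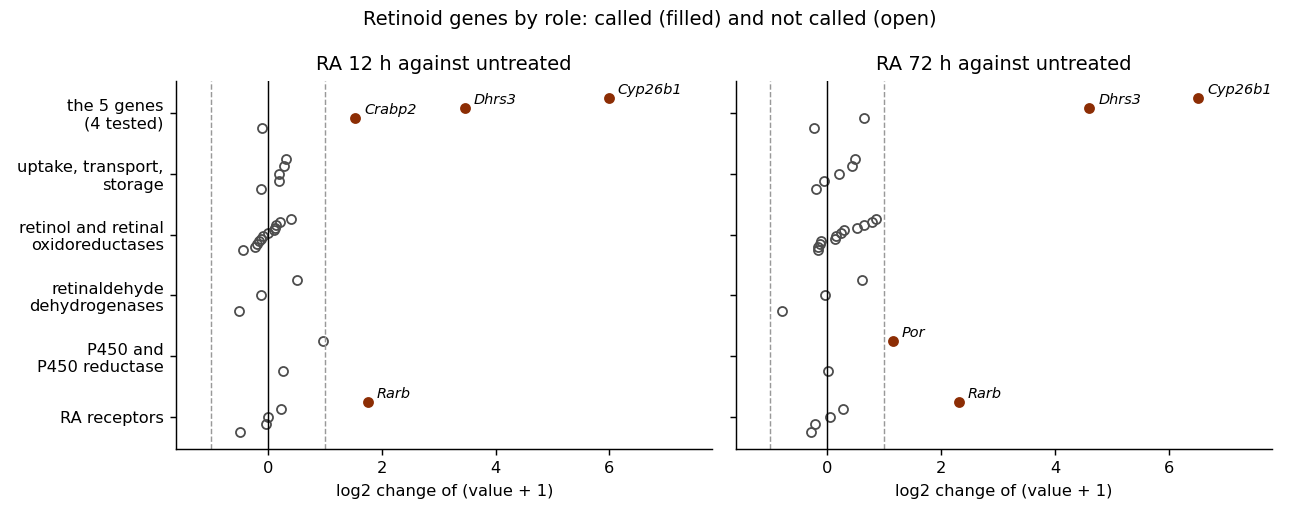
Log2 change of (value + 1) of tested retinoid genes by role, at 12 h (left) and 72 h (right) against untreated cells, with filled points for called genes and dashed lines at 2-fold. Cyp26b1, Dhrs3 and Rarb are called at both times, Crabp2 at 12 h and Por at 72 h.

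For each of the 5 genes, the genes whose log2 values ran most alike over the 8 libraries were looked up among 11170 genes, as a description. The libraries share 3 groups, so any gene with the same group pattern scores high. The r shown are the highest of 11170 over only 8 libraries, so a high r can also come from the search alone, as for Rdh10 and Crabp1, which were not called. Cyp26b1 ran most like Ermp1 (Pearson r 0.996), Tm4sf1 (0.995) and Metrn (0.990). Dhrs3 ran most like Ergic1 (0.998), Gpr124 (0.994) and Prss35 (0.993). The r does not measure size. Ergic1 went from a mean of 1121 to 1560 and 1696 normalised reads, Gpr124 from 975 to 2065 and 2904, and Prss35 from 21.2 to 497.5 and 1246. Crabp2 ran most like Msln (0.989), which encodes mesothelin and went from 542 to 1382 and 756, and Ints3 and Elovl6 (both 0.985). Rdh10 ran most like Morn1 (0.988), Kbtbd3 (0.980) and Dis3 (0.949), and Crabp1 like Slbp (0.982), Bcl10 (0.979) and Zranb1 (0.962), with Crabp1 itself near the lowest value of the table.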

How the data were processed

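The authors deposited 1 table of normalised reads per Ensembl gene for the 8 libraries, described by the submitters' processing notes as mm9. Sorted, its 8 library columns hold the same numbers, and under 1000 all of them (100%) are multiples of 0.125, so they were quantile normalised and are not counts. A line naming no gene (1) was dropped. The same file holds the authors' group averages and log2 ratios, which were not used. The labels describe DpnII and MmeI tags; the study's methods describe fragmented RNA, Tophat, Cufflinks and a count-based scaling, and 24 h in place of 72 h. The study's results section gives 12 h and 72 h, as the labels do, and the labels' times were followed.

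On the log2(value + 1) scale, the 12673 genes whose mean across libraries reached 10 were tested with limma 3.58.1 (R 4.3.3) with a variance trend, 3 groups in 1 fit, 3 contrasts, two-sided, adjusted by Benjamini-Hochberg over all of them. A gene was called at adjusted p below 0.05 and at least 2-fold change; Crabp1, under the minimum, was tested by an exact permutation test. The code was tested on simulated data. The named pathway genes are those called in any contrast and 12 chosen by name, of which 1 is not reported here. For likeness, the 3 genes with the highest Pearson r and a mean of at least 20 were taken. The members and lists were chosen with earlier results of these data known. Gene positions, 1-based, and exon lengths come from an mm9 annotation, in which 21465 of 22200 identifiers were found. Alternatives covered the pseudocount, the level minimum, scaling, the variance trend, the fit, a replicate block, a term for the shared axis, the fold minimum and leaving out each library.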

Additional observations from a re-analysis of the deposited data

Results flagged for a closer look

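For 2 of the 4 tested genes the change with RA differed between 12 h and 72 h by adjusted p alone, with no fold minimum. The test was of the difference itself, the contrast between the treated groups. Its estimate leaves the shared controls out, but their spread enters the SE and the p, since the 3 groups were in 1 fit. The share of all tested genes that pass by adjusted p alone was not counted, so the 2 of 4 cannot be set against it. By unadjusted p below 0.05 (limma), 2 of the 4 were higher and 1 lower, beside 8.86% and 10% of all tested genes. By adjusted p with the 2-fold minimum, 1 of the 4 was called higher and 0 lower, beside 0.765% and 0.734% of all tested genes. For Dhrs3 the change at 72 h was 1.14 larger on the log2 scale than that at 12 h (limma adjusted p 0.00249). For Crabp2 the difference was -0.88 (limma adjusted p 0.000295): its change at 72 h was smaller. In both genes the 2 libraries at 72 h did not overlap with the 3 libraries at 12 h. The same was true of Rdh10, which did not pass (246.5 and 229 against 249.9, 278 and 256), so this trait does not set the 2 genes apart. The share of all genes separated in this way was not counted. Time in culture and length of treatment cannot be told apart here. For Cyp26b1 and Rdh10 the same test gave limma adjusted p of 0.233 and 0.645.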

How the results depend on the processing

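For the 4 tested genes, all 204 alternative values had the direction given in the report and the same outcome by the calling rule of p and fold together. Many of them could not move the log2 change: the level minimum, the variance trend, the 2-group fit and leaving out a library of the third group. There only the p could move, so the direction was fixed, and for changes under 2-fold the outcome too. By p alone 1 crossed: Cyp26b1 from 12 h to 72 h, at 0.43 (limma adjusted p 0.00538) with the shared axis as a term, against 0.0535 to 0.75 under its other alternatives. The ranges were 5.74 to 6.18 (12 h) and 6.26 to 6.76 (72 h) for Cyp26b1, 3.27 to 3.67 and 4.40 to 4.81 for Dhrs3, and 1.49 to 1.57 and 0.57 to 0.73 for Crabp2; from 12 h to 72 h they were 0.28 to 0.77 for Cyp26b1, 1.05 to 1.16 for Dhrs3 and -0.96 to -0.81 for Crabp2. Where a 72 h library was left out, the lone one was assumed to vary like the other groups. Between 72 h and 12 h, the number of the 5 genes called was 2 with no fold minimum (Crabp2 joining Dhrs3) and 0 at a 3-fold minimum, by the construction of these rules. The shares of all tested genes under these rules were not counted. The number of other retinoid genes called at 12 h was 2 with the shared axis as a term and 2 with no fold minimum, and 1 to 2 with each library left out in turn (2 without the first RA 12 h library). At 72 h it was 4 with no fold minimum, 1 at 3-fold and 1 to 3 with each library left out (1 without the second 72 h library, which ends the call of Por, at 0.91). Between the times it was 2 with no fold minimum and 0 to 1 with each library left out (1, Rdh11, without the third RA 12 h library). For Crabp1 a pseudocount of 10 gave -0.27 at 72 h against untreated and -0.31 against 12 h, and leaving out each library gave -1.58 to -0.19 and -1.69 to -0.29; it has no value under the block, the axis term, the 2-group fit, the fit without a trend or a minimum mean of 50. The cause of these shifts was not tested, other than where named.

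No pairing by replicate number was seen: the correlations of the deviations of same-numbered libraries ran from -0.47 to 0.42. So few correlations cannot exclude a pairing. With the replicate number as a replicate block, the number of other retinoid genes called between 72 h and 12 h was 1 (Rdh11), against 0 without it; the counts of the 5 genes called were 3, 2 and 1, as without it, and the change of Dhrs3 from 12 h to 72 h was 1.05. The depth of the libraries is unknown, so no limit of detection can be given for genes near the lowest value.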

Other observations

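Direct repeats of the half-sites given in the report (any pair of the 4) with spacings of 1, 2 or 5 bases were also searched on both strands within 5 kb to either side of the gene starts of Cyp26b1, Dhrs3 and Crabp1 on mm9. Of 19107 windows around protein-coding gene starts, 7.98%, 11.5% and 3.73% hold a repeat of these spacings. None of the 3 was found for Cyp26b1 or Dhrs3, which says only that these letters are not in these windows. For Crabp1 there was 1 repeat spaced by 1 base, at chr9:54607624-54607636 on the minus strand, at -4925 from the gene start and outside annotated exons, with the half-sites in capitals: GGGTCAgAGTTCA. Crabp1 was near the lowest value of the table in every library. A match is a description of letters, not a binding site.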
